A study of Mus musculus with 23 samples.

Results

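Granzymes, perforin and the proteins that travel or act with them were followed through 8 genes in sorted mouse CD4+ T cells: Gzma, Gzmb, Gzmk, Prf1, Nkg7, Ctsw, Fasl and Ccl5. The genes were taken by name, and every probe set that the array annotation assigned to one of them alone was used, which gave 10 probe sets for 8 of the 18194 genes tested. None of the 10 was shared with another gene. Prf1 and Fasl had 2 probe sets each and the other members 1. Where a gene had several probe sets, the one with the highest mean over the arrays stood for the gene and the further one is reported beside it.

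Killer lymphocytes store granzymes and perforin in secretory granules. Perforin opens pores in the membrane of the target cell, and granzymes, which are serine proteases, enter and cut proteins there; granzyme B cuts caspases and other death substrates after aspartate residues. Fas ligand kills without granules, by engaging the death receptor Fas. CD4+ T cells can make these proteins after activation, and regulatory T cells, which carry CD25 and the transcription factor Foxp3, are known to make granzyme B.

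Total RNA was measured on 23 oligonucleotide arrays from cells sorted by CD25, which is part of the receptor for interleukin-2, and by CD49f, an integrin subunit (alpha 6). The 4 groups were CD25-CD49f- cells with 7 arrays, CD25-CD49f+ cells with 7, CD25+CD49f- cells with 5 and CD25+CD49f+ cells with 4. The labels call all of them T cells of female mice and number them as biological replicates, and the design text says that they were CD4+. They name no treatment, genotype, strain, age or tissue, and do not say whether a replicate was an animal or a pool, so a p-value measures the spread between these samples. Levels are log2 expression values, on which a difference of 1 is a doubling, and a gene is called changed at an adjusted p under 0.05 in limma, with Benjamini-Hochberg adjustment over all genes of the comparison.

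The gates were compared with the transcripts. Il2ra, which encodes CD25, had mean levels of 5.42 in CD25-CD49f- and 6.84 in CD25-CD49f+ cells and of 9.69 and 9.60 in CD25+CD49f- and CD25+CD49f+ cells. Foxp3 was at 4.74, 8.25, 9.79 and 9.85 in the same order, so the CD25-CD49f+ gate also held Foxp3 transcripts. Itga6, which encodes CD49f, did not follow its gate in CD25- cells, with 9.79 in CD49f- and 9.36 in CD49f+ cells. In CD25+ cells its arrays overlapped, from 9.28 to 9.84 (mean 9.64) in CD49f- and from 9.78 to 9.84 (mean 9.81) in CD49f+ cells. Of the labelled cells' defining markers, Cd4 ranged over group means from 9.12 to 9.68 and Cd3e from 11.65 to 11.70. Xist without Y-linked transcripts was found on 12 arrays, Y-linked transcripts without Xist on 10 and both on 1, against the label that names females, and both kinds were present in every group. In 4 arrays the median correlation with the arrays of their own group was 0.967 to 0.982, against at least 0.989 for the others: CD25-CD49f- replicates 1 and 7, CD25-CD49f+ replicate 1 and CD25+CD49f- replicate 5, of which the last also had a difference of 4.83 between the 3' and 5' Actb control probe sets against at most 2.70 elsewhere. Results that rest on these arrays are given with and without them. The table holds no detection calls, and a probe set can read well above 0 for an absent transcript (the Xist probe set read up to 6.50 on arrays without Xist), so low levels are not read as presence or absence. Where nearly all arrays of a group read at or under that level, the log2 difference is given as measured and no fold is drawn from it.

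RefSeq promoters of assembly GRCm38.p6 were at hand for 6 of the 8 members, as bases upstream of the annotated gene start. Those of Gzmb, Gzmk, Nkg7 and Prf1 are shown because these are the 4 members that differed by CD49f among CD25- cells. They are written 5' to 3' on the gene's own strand, up to the base before the start, with the letters of 5 searched motifs in capitals: TCACAC (T-box), TGTGGT (Runx), TTCNNNGAA (STAT), TGANTCA (AP-1) and AGGAAG (Ets), on both strands.
Gzmb: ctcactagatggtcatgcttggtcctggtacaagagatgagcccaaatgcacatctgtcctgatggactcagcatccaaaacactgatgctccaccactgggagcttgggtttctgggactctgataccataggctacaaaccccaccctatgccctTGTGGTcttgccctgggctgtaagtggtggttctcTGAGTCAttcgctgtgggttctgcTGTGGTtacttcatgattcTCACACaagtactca
Gzmk: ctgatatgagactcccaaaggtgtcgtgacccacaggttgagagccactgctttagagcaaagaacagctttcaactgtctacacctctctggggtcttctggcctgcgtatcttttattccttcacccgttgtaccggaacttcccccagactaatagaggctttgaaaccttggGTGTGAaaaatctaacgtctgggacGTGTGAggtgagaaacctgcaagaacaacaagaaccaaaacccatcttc
Nkg7: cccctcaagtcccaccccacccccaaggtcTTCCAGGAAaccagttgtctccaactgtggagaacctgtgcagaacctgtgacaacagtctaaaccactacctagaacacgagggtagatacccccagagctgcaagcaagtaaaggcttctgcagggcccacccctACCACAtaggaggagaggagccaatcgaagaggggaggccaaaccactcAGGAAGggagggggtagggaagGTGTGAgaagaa
Prf1: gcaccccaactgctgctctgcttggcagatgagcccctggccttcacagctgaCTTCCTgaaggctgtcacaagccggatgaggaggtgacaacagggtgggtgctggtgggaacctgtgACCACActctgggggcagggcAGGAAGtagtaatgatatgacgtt
These windows are chr14:56262335-56262584 for Gzmb and chr13:113180966-113181215 for Gzmk, both on the minus strand, and chr7:43436888-43437137 for Nkg7 and chr10:61297586-61297750 for Prf1, both on the plus strand. The Gzmb window held a T-box match 15 to 10 bases upstream of the start, Runx matches at 93 to 88 and 34 to 29, and an AP-1 match between them at 58 to 52. The Gzmk window held 2 T-box matches, read on the other strand as GTGTGA, at 74 to 69 and 49 to 44 bases. The Nkg7 window held a T-box match at 12 to 7 bases, an Ets match at 34 to 29, a Runx match at 83 to 78 and a STAT match at 220 to 212. The Prf1 window, which covered 165 bases, held 1 Runx and 2 Ets matches and none of the T-box letters. Fasl had 1 Ets match and Gzma 1 Runx match in their 250 bases. T-box letters thus stood in 3 of the 6 windows, Runx letters in 4 and Ets letters in 3, and no matches overlapped. Of 32851 RefSeq promoters cut to 250 bases, 12.3% held the T-box letters, 14.0% the Runx, 7.0% the STAT, 6.7% the AP-1 and 29.5% the Ets letters. In the first 165 of these 250 bases, those farthest from the start, the shares were 8.3%, 9.5%, 4.9%, 4.5% and 19.9%. A match is a run of letters and was not tested as a binding site.

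Between the CD49f gates of CD25- cells, 4 of the 8 members changed: Gzmb, Nkg7 and Gzmk were higher and Prf1 was lower in CD49f+ cells. Over all genes 13.4% were called, 8.01% higher and 5.42% lower. The members' median difference was 0.09, against -0.02 over all genes.

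Between the CD49f gates of CD25+ cells, 3 members changed and all 3 were lower in CD49f+ cells: Gzmb, Fasl and Ccl5. Over all genes 1.82% were called, 0.352% higher and 1.47% lower. The members' median difference was -0.39, against 0.01 over all genes. No member was called in the 2 arrays against 2 that carried Xist alone, nor in the 2 against 2 that carried Y-linked transcripts alone.

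The difference between those CD49f contrasts was tested directly as an interaction, the CD49f difference in CD25+ cells minus that in CD25- cells. It was called for 5 members, negative for Gzmb, Nkg7, Gzmk and Fasl and positive for Prf1. Over all genes 5.31% were called, 4.33% negative (lower) and 0.984% positive (higher). The members' median was -0.47, against 0.03 over all genes.

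Across the CD25 gate more members were lower than higher in CD25+ cells. Among CD49f+ cells 4 members were lower (Gzmk, Fasl, Ccl5 and Nkg7) and none higher, where 5.72% of all genes were called, 2.81% higher and 2.91% lower. Among CD49f- cells 2 members were higher (Gzmb and Nkg7) and 4 lower (Prf1, Ccl5, Gzmk and Fasl), where 14.0% of all genes were called, 9.34% higher and 4.68% lower. The members' medians were -0.59 and -0.61, against 0.02 and -0.01 over all genes.

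The remaining pairs order the groups. CD25+CD49f+ cells had 2 members higher (Gzmb and Nkg7) and 4 lower (Prf1, Ccl5, Fasl and Gzmk) than CD25-CD49f- cells, where 13.2% of all genes were called, 7.63% higher and 5.53% lower. CD25+CD49f- cells had 1 member higher (Gzmb) and 4 lower (Gzmk, Fasl, Ccl5 and Nkg7) than CD25-CD49f+ cells, where 8.86% of all genes were called, 5.23% higher and 3.63% lower. The members' medians were -0.81 and -0.44, against 0.00 and 0.01 over all genes. The arrays of both groups did not overlap for 4 members between the CD49f gates of CD25- cells, against 5.78% of all genes. Between those of CD25+ cells it was 4 members, against 4.67%. Across the CD25 gate it was 4 members (8.22% of all genes) among CD49f+ and 6 (8.1%) among CD49f- cells. It was 6 (10.7%) for CD25+CD49f+ against CD25-CD49f- and 4 (7.31%) for CD25+CD49f- against CD25-CD49f+ cells. These comparisons share arrays with each other, so their counts are not independent. In bulk RNA, fewer cells that express a gene and less RNA per cell cannot be told apart.

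**Figure D1:**
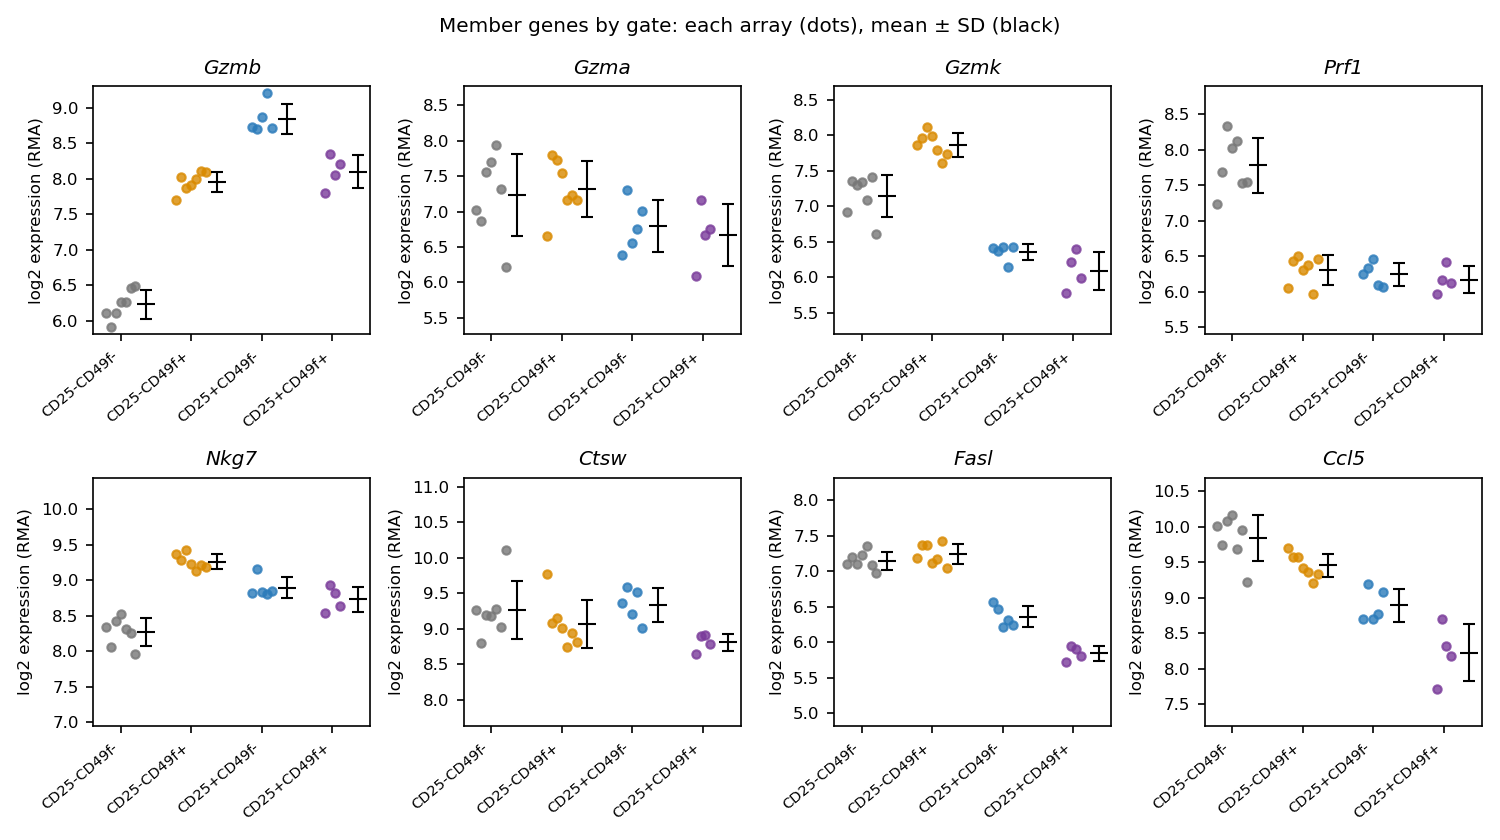
Log2 expression of the 8 members (panels) on every array (points) by gate, with group means ± SD as bars. Gzmb is lowest on the 7 CD25-CD49f- arrays and highest on the 5 CD25+CD49f- arrays, and Prf1 is high on the 7 CD25-CD49f- arrays alone.

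Gzmb, which encodes granzyme B (chr14:56258836-56262334 on GRCm38.p6), was lowest in CD25-CD49f- cells, where the 7 arrays ran from 5.90 through a median of 6.26 to 6.49. The 7 CD25-CD49f+ arrays ran from 7.70 through 7.99 to 8.11. The 5 CD25+CD49f- arrays read 8.73, 8.70, 8.86, 9.20 and 8.71, and the 4 CD25+CD49f+ arrays 7.80, 8.34, 8.05 and 8.21. The CD25-CD49f- arrays lay below, and the CD25+CD49f- arrays above, every array of the other groups, while the CD49f+ groups overlapped each other. All 7 CD25-CD49f- arrays were at or under the level of the absent Xist signal. Among CD25- cells Gzmb was higher in CD49f+ than in CD49f- cells (log2 difference 1.73 ± 0.10 SE, adjusted p = 4.92e-12). Among CD25+ cells the direction was opposite, and CD49f+ cells were 1.67-fold lower (-0.74 ± 0.13, adjusted p = 8.67e-04). The interaction was -2.47 ± 0.17 (adjusted p = 1.02e-10). In the arrays with Xist alone the difference among CD25+ cells was -0.65 (adjusted p = 0.213) and in those with Y-linked transcripts alone -0.90 (adjusted p = 0.153). CD25+CD49f- cells were above CD25-CD49f- cells (2.61 ± 0.11, adjusted p = 3.05e-15). The CD49f+ groups were not separated by CD25 (0.14 ± 0.12, 95% interval -0.11 to 0.39, adjusted p = 0.785).

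Gzmk, which encodes granzyme K, a protease with trypsin-like cleavage (chr13:113171630-113180965), had its highest level in CD25-CD49f+ cells, with 7 arrays from 7.62 through 7.86 to 8.11. The CD25-CD49f- arrays ran from 6.61 through 7.30 to 7.41. In CD25+CD49f- cells the arrays read 6.41, 6.37, 6.43, 6.15 and 6.43, and the CD25+CD49f+ arrays 5.78, 6.22, 6.40 and 5.99. Every CD25-CD49f+ array was above every CD25-CD49f- array, and all CD25- arrays were above all CD25+ arrays. Among CD25- cells Gzmk was higher with CD49f (0.72 ± 0.11, adjusted p = 4.69e-05). Among CD25+ cells the difference was -0.26 ± 0.14 (95% interval -0.56 to 0.04, adjusted p = 0.801), and the interaction was -0.98 ± 0.18 (adjusted p = 9.40e-04). All 9 CD25+ arrays were at or under the level of the absent Xist signal. CD25+CD49f+ cells were below CD25-CD49f+ cells (-1.77 ± 0.13, adjusted p = 1.40e-09), and CD25+CD49f- cells were below CD25-CD49f- cells by less (-0.79 ± 0.13, adjusted p = 4.17e-05). In arrays with Y-linked transcripts alone the CD49f difference among CD25- cells was 0.59 (adjusted p = 0.165), the interaction -0.69 (adjusted p = 0.601) and the difference of CD25+CD49f- from CD25-CD49f- cells -0.84 (adjusted p = 0.0740). Gzmk and Gzmb are both granzymes, and their highest groups were different ones.

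Gzma, which encodes granzyme A (chr13:113093824-113100981), varied more within groups than the other granzymes. Its means were 7.23 ± 0.58 (SD, n = 7) in CD25-CD49f-, 7.32 ± 0.39 (n = 7) in CD25-CD49f+, 6.80 ± 0.37 (n = 5) in CD25+CD49f- and 6.67 ± 0.44 (n = 4) in CD25+CD49f+ cells. The CD25-CD49f- arrays ran from 6.22 through 7.32 to 7.94 and the CD25-CD49f+ arrays from 6.66 through 7.23 to 7.79. The CD25+CD49f- arrays read 6.39, 7.31, 6.55, 6.75 and 7.01, and the CD25+CD49f+ arrays 6.10, 7.16, 6.67 and 6.75. All 4 groups overlapped, and no comparison called Gzma with equal weights. With estimated array weights, which keep all 23 arrays, each of the 4 comparisons of a CD25+ with a CD25- group called it lower, by -0.62 to -0.69 (adjusted p from 0.00536 to 0.0288). All 4 also called it lower in the CD25+ cells once the 4 arrays that stood apart were left out. The differences were then -0.77 (adjusted p = 0.0123) among CD49f+ cells, -0.73 (adjusted p = 0.0155) among CD49f- cells, -0.81 (adjusted p = 0.00661) for CD25+CD49f+ against CD25-CD49f- and -0.69 (adjusted p = 0.0235) for CD25+CD49f- against CD25-CD49f+ cells. With all arrays at equal weight these were -0.65, -0.43, -0.56 and -0.52, with adjusted p between 0.201 and 0.32. Leaving out CD25-CD49f- replicate 7 alone, the lowest array of its group at 6.22, gave -0.73 for CD25+CD49f+ against CD25-CD49f- cells (adjusted p = 0.0304).

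Prf1, which encodes perforin (chr10:61297751-61304684), was high in CD25-CD49f- cells alone. Its 7 arrays there ran from 7.24 through 7.69 to 8.34. The CD25-CD49f+ arrays ran from 5.96 through 6.38 to 6.51. The CD25+CD49f- arrays read 6.25, 6.34, 6.47, 6.10 and 6.07, and the CD25+CD49f+ arrays 5.96, 6.17, 6.42 and 6.13. No array of the other 3 groups reached the lowest CD25-CD49f- array, and those 3 groups overlapped. In those groups 6 of 7, 5 of 5 and 4 of 4 arrays were at or under the level of the absent Xist signal. Relative to CD25-CD49f- cells Prf1 was lower in CD25-CD49f+ cells (-1.48 ± 0.14, adjusted p = 7.46e-09), in CD25+CD49f- cells (-1.54 ± 0.15, adjusted p = 1.56e-08) and in CD25+CD49f+ cells (-1.61 ± 0.16, adjusted p = 2.71e-08). The CD49f difference among CD25+ cells was -0.08 ± 0.17 (95% interval -0.43 to 0.28), and the interaction was 1.41 ± 0.22 (adjusted p = 9.10e-05). In arrays with Xist alone the interaction was 1.37 (adjusted p = 0.0518). The Prf1 calls rest on the brighter of its 2 probe sets. The dimmer one read between 4.80 and 5.83 on all arrays and showed none of these differences, with -0.07 ± 0.12 (adjusted p = 0.822) for the CD49f gates of CD25- cells. Prf1 and Gzmb thus had opposite extremes in the CD25-CD49f- group, the highest for perforin and the lowest for granzyme B.

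Nkg7, which encodes a granule membrane protein needed for efficient degranulation (chr7:43437138-43438246), was highest in CD25-CD49f+ cells, with 7 arrays from 9.14 through 9.23 to 9.43. The CD25-CD49f- arrays ran from 7.97 through 8.32 to 8.53. The CD25+CD49f- arrays read 8.83, 9.16, 8.84, 8.81 and 8.85, and the CD25+CD49f+ arrays 8.54, 8.93, 8.82 and 8.63. All CD25-CD49f- arrays lay below those of the other groups, and replicate 2 of the CD25+CD49f- cells was the only array of another group that reached the CD25-CD49f+ range. Nkg7 was 1.99-fold higher with CD49f among CD25- cells (0.99 ± 0.09, adjusted p = 4.00e-09). Among CD25+ cells the difference was -0.17 ± 0.11 (95% interval -0.39 to 0.06, adjusted p = 0.900), and the interaction was -1.16 ± 0.14 (adjusted p = 3.03e-06). Relative to CD25-CD49f- cells it was higher in CD25+CD49f- cells (0.62 ± 0.10, adjusted p = 2.53e-05) and in CD25+CD49f+ cells (0.46 ± 0.10, adjusted p = 0.00232). Relative to CD25-CD49f+ cells it was lower in CD25+CD49f+ cells (-0.53 ± 0.10, adjusted p = 0.00108) and in CD25+CD49f- cells (-0.37 ± 0.10, adjusted p = 0.0136). In arrays with Xist alone the rise in CD25+CD49f+ over CD25-CD49f- cells was 0.33 (adjusted p = 0.244) and the difference of CD25+CD49f- from CD25-CD49f+ cells -0.33 (adjusted p = 0.339). In those with Y-linked transcripts alone the latter was -0.35 (adjusted p = 0.301) and the difference of CD25+CD49f+ from CD25-CD49f+ cells -0.45 (adjusted p = 0.150).

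Ctsw, which encodes cathepsin W, a cysteine protease found in NK and cytotoxic T cells (chr19:5465043-5468628), was called in no comparison with all arrays at equal weight. Its means were 9.27 ± 0.41 (SD, n = 7) in CD25-CD49f-, 9.07 ± 0.34 (n = 7) in CD25-CD49f+, 9.34 ± 0.24 (n = 5) in CD25+CD49f- and 8.81 ± 0.12 (n = 4) in CD25+CD49f+ cells. Its highest arrays in both CD25- groups were arrays that stood apart, at 10.11 in CD25-CD49f- replicate 7, where the others reached 9.28, and at 9.77 in CD25-CD49f+ replicate 1, where the others reached 9.15. The CD25+CD49f- arrays read 9.36, 9.59, 9.20, 9.52 and 9.01, all above the CD25+CD49f+ arrays at 8.65, 8.89, 8.91 and 8.78. Without the 4 arrays Ctsw was lower with CD49f among CD25+ cells (-0.61, adjusted p = 9.30e-04, against -0.53 and 0.359 with all arrays). Its level in CD25+CD49f- cells was then above that of CD25-CD49f- cells (0.32, adjusted p = 0.0295) and of CD25-CD49f+ cells (0.46, adjusted p = 0.00189), and the interaction was -0.47 (adjusted p = 0.0402). With array weights on all 23 arrays 3 of these passed too, at -0.61 (adjusted p = 9.65e-04) between the CD49f gates of CD25+ cells, 0.45 (adjusted p = 0.00264) over CD25-CD49f+ cells and -0.48 (adjusted p = 0.0381) for the interaction. The difference between the CD49f gates of CD25+ cells also passed with those groups fitted alone (-0.53, adjusted p = 0.0472).

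Fasl, which encodes Fas ligand (chr1:161780691-161788495), followed the CD25 gate. In CD25-CD49f- cells the arrays ran from 6.97 through 7.10 to 7.35 and the CD25-CD49f+ arrays from 7.05 through 7.19 to 7.42. In CD25+CD49f- cells the arrays read 6.57, 6.46, 6.22, 6.32 and 6.24, and the CD25+CD49f+ arrays 5.72, 5.95, 5.91 and 5.81. The CD25- groups overlapped, the CD25+CD49f- arrays lay below both, and the CD25+CD49f+ arrays lay below all others. At or under the level of the absent Xist signal were 4 of 5 CD25+CD49f- and 4 of 4 CD25+CD49f+ arrays. Across the CD25 gate Fasl was lower among CD49f+ cells (-1.40 ± 0.09, adjusted p = 8.32e-11) and among CD49f- cells (-0.78 ± 0.08, adjusted p = 1.13e-07). Among CD25+ cells it was lower with CD49f (-0.52 ± 0.10, adjusted p = 0.00207), among CD25- cells the difference was 0.10 ± 0.08 (95% interval -0.06 to 0.25), and the interaction was -0.61 ± 0.12 (adjusted p = 0.00209). Within the arrays with Xist alone the difference among CD25+ cells was -0.68 (adjusted p = 0.0680) and within those with Y-linked transcripts alone -0.41 (adjusted p = 0.857), and the interaction was -0.75 (adjusted p = 0.0541) and -0.54 (adjusted p = 0.351). The Fasl calls rest on the brighter of its 2 probe sets. The dimmer one was called in no comparison, with -0.64 (adjusted p = 0.0818) for CD25+CD49f+ against CD25-CD49f+ cells and -0.07 (adjusted p close to 1) between the CD49f gates of CD25+ cells. With the mean of both probe sets the difference among CD25+ cells was -0.29 (adjusted p = 0.567) and the interaction -0.45 (adjusted p = 0.156).

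Ccl5, which encodes a chemokine held in cytotoxic and memory T cells (chr11:83525778-83530518), declined from CD25- to CD25+ groups. In CD25-CD49f- cells the arrays ran from 9.22 through 9.95 to 10.17 and the CD25-CD49f+ arrays from 9.21 through 9.42 to 9.69. Those of CD25+CD49f- cells read 8.70, 9.19, 8.71, 8.78 and 9.09, and the CD25+CD49f+ arrays 7.72, 8.69, 8.32 and 8.17. Every CD25+ array lay below every CD25- array, and the groups of CD25+ cells did not overlap, by a margin of 8.69 against 8.70. Ccl5 in CD25+CD49f+ cells was 3.05-fold below the CD25-CD49f- level (-1.61 ± 0.16, adjusted p = 4.89e-08) and 2.34-fold below the CD25-CD49f+ level (-1.23 ± 0.16, adjusted p = 1.15e-05). Among CD49f- cells it was lower with CD25 (-0.95 ± 0.15, adjusted p = 5.43e-05). The difference between the CD49f gates of CD25+ cells was at the edge of the threshold (-0.67 ± 0.18, adjusted p = 0.0498). It lost the call in 29 of 38 alternatives, among them 19 of the 23 that left out an array, and without CD25+CD49f+ replicate 1 it was -0.50 (adjusted p = 0.318). The difference of CD25+CD49f- from CD25-CD49f+ cells (-0.56, adjusted p = 0.0188) lost the call without CD25+CD49f- replicate 1 (-0.51, adjusted p = 0.0605), 3 (-0.51, adjusted p = 0.0630) or 4 (-0.53, adjusted p = 0.0520), and in arrays with Xist alone (-0.62, adjusted p = 0.222) or Y-linked transcripts alone (-0.56, adjusted p = 0.271). Among CD25- cells CD49f+ cells differed by -0.38 ± 0.14 (adjusted p = 0.0755), which passed the threshold on all 23 arrays with array weights (-0.51, adjusted p = 0.00120) and with quantile scaling (-0.45, adjusted p = 0.0257). It also passed without CD25-CD49f- replicate 7 (-0.49, adjusted p = 0.00696), without CD25+CD49f+ replicate 1 (-0.38, adjusted p = 0.0482) and without the 4 arrays that stood apart (-0.51, adjusted p = 0.00583).

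**Figure D2:**
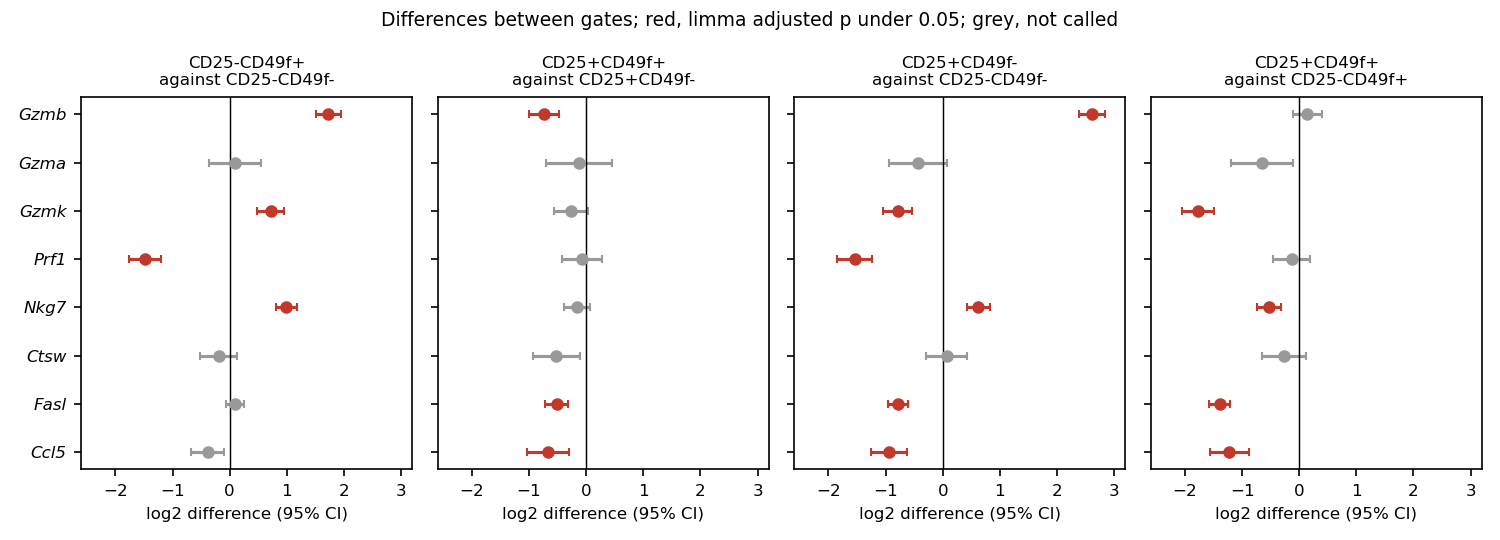
Log2 differences of the 8 members with 95% confidence intervals in 4 comparisons (panels), red where limma's adjusted p was under 0.05. Gzmb, Gzmk and Nkg7 lie right of 0 and Prf1 left of 0 across the CD49f gates of CD25- cells, and Gzmb, Fasl and Ccl5 lie left of 0 across those of CD25+ cells.

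**Figure D3:**
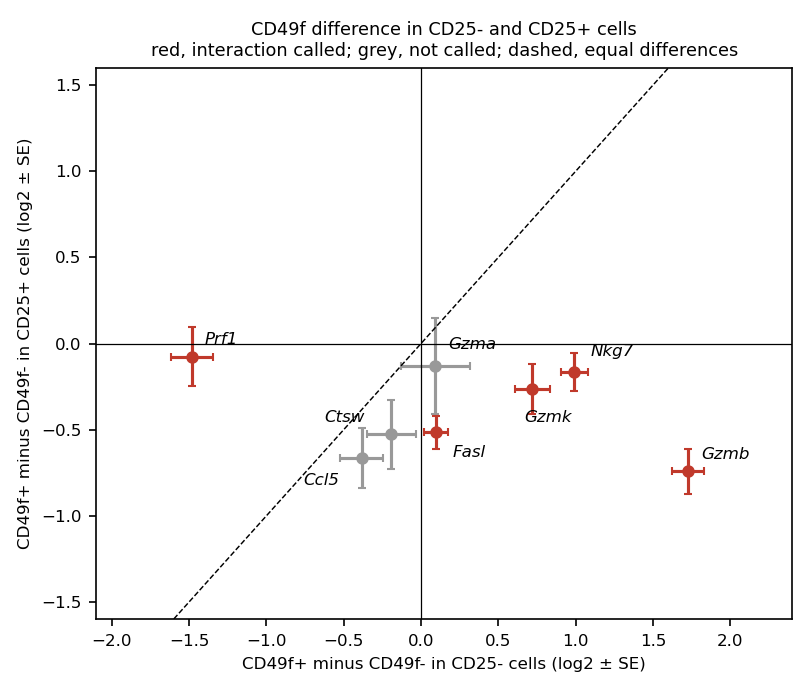
The CD49f difference of each member in CD25- cells (x axis, log2 ± SE) against that in CD25+ cells (y axis, log2 ± SE), red where the interaction was called. Gzmb lies at 1.73 and -0.74, farthest from the dashed line of equal differences, and Prf1 at -1.48 and -0.08 on its other side.

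The order of the groups differed between members, and neighbours in an order were not always separated. For Gzmb it was CD25+CD49f-, then CD25+CD49f+ and CD25-CD49f+, which did not differ, then CD25-CD49f-. For Gzmk and Fasl the CD25- groups came before CD25+CD49f- and CD25+CD49f+ cells, with no separation within CD25+ cells for Gzmk and none within CD25- cells for Fasl. For Nkg7 CD25-CD49f+ cells came first, then both CD25+ groups without separation, then CD25-CD49f- cells. For Prf1 CD25-CD49f- cells came first and the other 3 groups were not separated, and for Ccl5 the CD25- groups, not separated from each other, came before CD25+CD49f- and then CD25+CD49f+ cells. No neighbours differed for Gzma or Ctsw.

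The members also varied within groups. CD25+CD49f+ replicate 1 was the lowest of its 4 arrays for all 8 members, and CD25-CD49f- replicate 7 the lowest of its 7 for 5 of them. The upper quartile of all log2 values was 7.04 on the former array, against 7.10 to 7.18 on the others of its group. After subtracting each group's mean, Nkg7 and Ccl5 moved together over the 23 arrays (Pearson r = 0.85), as did Gzma with Nkg7 (0.70) and Gzmk with Ccl5 (0.67), while Gzmb did not with any of these (Gzma 0.14, Gzmk -0.24, Nkg7 -0.10, Ccl5 -0.10). These coefficients describe arrays that share scaling and RNA quality. Over all 23 arrays, group differences included, the 3 genes most like each member were Dusp4, Itgae and Foxp3 for Gzmb (r = 0.95 each), Iqgap2, Pycard and Gpsm2 for Gzmk (0.94, 0.93 and 0.92), Acvrl1, Atp1b1 and Kmo for Prf1 (0.94, 0.94 and 0.93) and H2az2, Lgals1 and 1500009L16Rik for Nkg7 (0.94, 0.94 and 0.93). For Fasl they were Themis, Inafm2 and Slc20a1 (0.96, 0.95 and 0.94), for Ccl5 Pde3b, Themis and Enc1 (0.95, 0.94 and 0.93), for Gzma Entpd5, Klra16 and Pdcd6ip (0.85, 0.84 and 0.83) and for Ctsw Med28, Tesk1 and Agpat2 (0.90, 0.86 and 0.84).

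Of 31 further granule and killing genes 29 were measured. Over all genes 8.01% were called higher and 5.42% lower between the CD49f gates of CD25- cells. Between those of CD25+ cells the shares were 0.352% and 1.47%, and for the interaction 0.984% (positive) and 4.33% (negative). Across the CD25 gate they were 2.81% and 2.91% among CD49f+ cells and 9.34% and 4.68% among CD49f- cells. For CD25+CD49f+ against CD25-CD49f- cells they were 7.63% and 5.53%. Between the CD49f gates of CD25- cells 11 of the 29 were higher and 1 was lower, with a median of 0.12 against -0.02 over all genes. They included Stx11, a syntaxin of granule release (1.52 ± 0.11, adjusted p = 2.03e-10), Serpinb6b, a serpin of the family that inhibits granule proteases (1.33 ± 0.11, adjusted p = 6.27e-10), Cst7, which encodes cystatin F, an inhibitor of granule cathepsins (1.08 ± 0.09, adjusted p = 2.43e-09), and Srgn, the proteoglycan core on which granzymes are stored (0.60 ± 0.08, adjusted p = 2.82e-06). Lyst, a regulator of lysosome size, was the gene that was lower (-0.89 ± 0.14, adjusted p = 4.29e-05). Serpins of this family and Gzmc to Gzmg have close paralogs, so their probe sets may read more than one gene. Between the CD49f gates of CD25+ cells Cst7 alone changed, and it was higher (0.47 ± 0.12, adjusted p = 0.0307), opposite to Gzmb, Fasl and Ccl5. The interaction called 0 of the 29 positive and 5 negative, among them Stx11 (-1.49 ± 0.18), Serpinb6b (-1.40 ± 0.17), Cst7 (-0.61 ± 0.15) and Srgn (-0.60 ± 0.13). In CD25+ against CD25- cells 3 were higher and 1 lower among CD49f+ cells, and 11 were higher and 1 lower among CD49f- cells. CD25+CD49f+ against CD25-CD49f- cells gave 11 higher and 1 lower, with Cst7 at 1.85 ± 0.11 and Lyst at -1.53 ± 0.17. CD25+CD49f- against CD25-CD49f+ cells gave 2 higher and 1 lower, the last being Rab27a, a GTPase of granule docking (-1.02 ± 0.30, adjusted p = 0.0295). Over all genes 5.23% were higher and 3.63% lower there, and the counts of this list were near those shares.

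Of 20 transcriptional regulators of cytotoxic genes 18 were measured. The shares of all genes called are those given with the granule genes. Between the CD49f gates 8.01% were higher and 5.42% lower in CD25- cells, and 0.352% and 1.47% in CD25+ cells. Tbx21, which encodes T-bet, was highest in CD25-CD49f+ cells, where its mean was 8.65 ± 0.12 (SD, n = 7), against 7.39 ± 0.16 (n = 7) in CD25-CD49f-, 7.52 ± 0.20 (n = 5) in CD25+CD49f- and 7.37 ± 0.31 (n = 4) in CD25+CD49f+ cells. Among CD25- cells 10 regulators were higher with CD49f and 0 lower, with a median of 0.46, and the calls with the smallest p were Tbx21 (1.26 ± 0.10, adjusted p = 7.80e-10), Nfil3 (1.53 ± 0.13, adjusted p = 1.26e-09), Gfi1 (1.26 ± 0.11) and Bhlhe40 (1.42 ± 0.14). Among CD25+ cells 0 were higher and 4 lower, with a median of -0.05: Id2 (-1.52 ± 0.25, adjusted p = 4.47e-04), Prdm1, which encodes Blimp-1 (-0.95 ± 0.18, adjusted p = 0.00198), Runx3 (-0.80 ± 0.18, adjusted p = 0.0114) and Eomes (-0.75 ± 0.18, adjusted p = 0.0248). The interaction was negative for 10 of the 18 and positive for 0, with a median of -0.86, and included Tbx21 (-1.42 ± 0.16) and Prdm1 (-1.44 ± 0.23). Among CD49f+ cells 2 regulators were higher and 3 lower with CD25, the lower ones being Tbx21 (-1.28 ± 0.12), Id2 (-1.56 ± 0.23) and Runx3 (-1.02 ± 0.17). Among CD49f- cells 10 were higher with CD25 and 0 lower, including Nfil3 (1.96 ± 0.14) and Gfi1 (1.68 ± 0.12). CD25+CD49f+ against CD25-CD49f- cells gave 7 higher and 2 lower, and CD25+CD49f- against CD25-CD49f+ cells 4 higher and 2 lower, with Eomes higher (0.73 ± 0.16) and Tbx21 lower (-1.13 ± 0.11).

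Of 17 chemokine and cytokine partners 16 were measured. The same shares of all genes apply, with 8.01% higher and 5.42% lower between the CD49f gates of CD25- cells. Between those of CD25+ cells they were 0.352% and 1.47%. Ifng, the signature cytokine of Th1 and cytotoxic cells, had means of 5.13 ± 0.55 (SD, n = 7) in CD25-CD49f-, 8.64 ± 0.38 (n = 7) in CD25-CD49f+, 7.63 ± 0.41 (n = 5) in CD25+CD49f- and 7.29 ± 0.37 (n = 4) in CD25+CD49f+ cells. Among CD25- cells 8 partners were higher with CD49f and 1 lower, led by Il2rb, a chain shared by the receptors of interleukin-2 and interleukin-15 (1.90 ± 0.10, adjusted p = 3.63e-13), Ifng (3.51 ± 0.22, adjusted p = 7.90e-12) and Il12rb1 (1.56 ± 0.12, adjusted p = 1.88e-10). Among CD25+ cells 0 were higher and 2 lower, the interleukin-18 receptor chains Il18r1 (-0.60 ± 0.11, adjusted p = 0.00215) and Il18rap (-0.92 ± 0.13, adjusted p = 5.39e-05). The interaction was negative for 6 and positive for 0. Among CD49f+ cells 1 was higher with CD25 (Il2rb, 1.16 ± 0.11) and 2 were lower (Ifng, -1.36 ± 0.25, and Il18rap, -1.05 ± 0.12). Among CD49f- cells 8 were higher with CD25 and 0 lower. CD25+CD49f+ against CD25-CD49f- cells gave 6 higher and 0 lower, and CD25+CD49f- against CD25-CD49f+ cells 2 higher and 1 lower (Ifng, -1.01 ± 0.24).

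**Figure D4:**
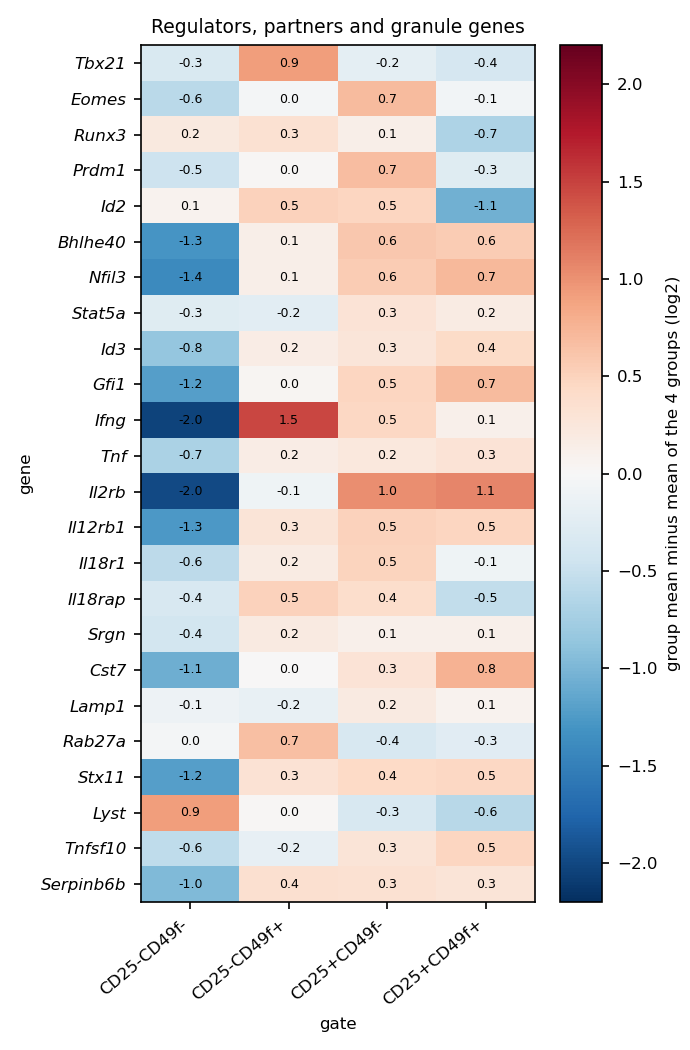
Group means of 24 genes of the regulator, partner and granule lists (rows) minus the mean of the 4 groups (log2, colour and number), for the listed genes named among the calls with the smallest p. Tbx21 and Ifng are highest in CD25-CD49f+ cells, and Id2, Runx3 and Il18rap are lowest in CD25+CD49f+ cells.

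Markers of other cells were read on the same arrays, as the summed linear signal of each list. Many group means were at or under the level of the absent Xist signal. By group, these were 4 of 5 CD8 T cell, 6 to 8 of 10 NK cell and 3 to 5 of 5 gamma delta and NKT cell markers. All 4 mast cell and basophil markers were also at or under it in every group. Such sums are not read as amounts of cells. Of 5 CD8 T cell markers, Cd8a and Cd8b1 were called in no pairwise comparison, Klrc1 was lower in CD25+CD49f+ than in either CD25- group and Crtam was lower with CD25 among CD49f- cells (-0.52 ± 0.13, adjusted p = 0.00698). Their sum ran from 196.2 to 267.2 in CD25-CD49f-, 175.4 to 198.2 in CD25-CD49f+, 163 to 210.7 in CD25+CD49f- and 162 to 193.3 in CD25+CD49f+ cells. Of 14 NK cell markers 10 were measured, with sums of 1136 to 2684, 709.4 to 942.2, 897.3 to 1190 and 497.1 to 707 in the same order. Ncr1, the gene of the NK receptor NKp46, was not called between the CD49f gates and in CD25+CD49f- cells it was above CD25-CD49f- (0.34 ± 0.11, adjusted p = 0.0307) and CD25-CD49f+ cells (0.34 ± 0.11, adjusted p = 0.0431). Of the 10, the comparison with CD25-CD49f- cells called 3 higher (Ncr1, Cd160 at 1.45 and Fcer1g at 0.92) and 2 lower (Klrd1 at -2.56 and Tyrobp at -1.35), and that with CD25-CD49f+ cells called the same 3 higher and Klrd1 lower (-1.11). Over all genes 9.34% were higher and 4.68% lower against CD25-CD49f- cells, and 5.23% and 3.63% against CD25-CD49f+ cells. The 5 measured of 9 gamma delta and NKT cell markers had their highest sums in CD25+CD49f- cells, where Gzmb was highest, at 502.4 to 535. They were 286.8 to 345, 376.5 to 438.5 and 286.5 to 326.8 in CD25-CD49f-, CD25-CD49f+ and CD25+CD49f+ cells. Of the 5, Blk and 5830411N06Rik were called above every other group there. Zbtb16 was at 6.49 there and at 6.58 in CD25-CD49f+ cells, which was not called. Sox13 and Cd163l1 were called in no comparison. The 4 gamma delta receptor genes of the list were not measured. The part of gamma delta and NKT cells in the Gzmb levels was not tested.

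The CD25-CD49f- cells, where Prf1 was high, also had the highest median sums of the NK and of the myeloid and dendritic cell markers, at 1767 and 6787. Of the 10 NK cell markers 7 had means there at or under the level of the absent Xist signal. The highest NK marker means there were those of Tyrobp (9.37) and Klrd1 (9.09), so the NK sum is not read as a raised list. The 10 measured of 11 myeloid and dendritic cell markers summed to 3170 to 10891 there, against 2237 to 3633 in CD25-CD49f+, 3665 to 4538 in CD25+CD49f- and 1343 to 3157 in CD25+CD49f+ cells. Between the CD49f gates of CD25- cells 6 of these 10 were lower with CD49f, as was Prf1, including Siglech, a plasmacytoid dendritic cell gene (-1.36 ± 0.18, adjusted p = 2.21e-06). Over all genes 5.42% were lower there, and Lyz2 (0.06) and Csf1r (-0.07) were not called. CD25+CD49f- cells, where Prf1 was also low, had 3 of the 10 lower than CD25-CD49f- cells, where 4.68% of all genes were lower. H2-Aa (-0.27), Cd74 (-0.63) and Adgre1 (-0.04) were not called in that comparison, and Fcer1g of the NK list was higher (0.92). Itgax, which encodes CD11c, had means of 8.58, 6.66, 6.16 and 6.22 in CD25-CD49f-, CD25-CD49f+, CD25+CD49f- and CD25+CD49f+ cells. In the same order Tyrobp, an adaptor of innate receptors, had 9.37, 7.93, 8.01 and 7.43, and Klrd1, which encodes CD94, 9.09, 7.65, 6.53 and 6.41. Of the 10 NK cell markers only these 2 were called between the CD49f gates of CD25- cells, both lower with CD49f. The other 8 were not called there, among them Ncr1 (-0.0025) and Klrk1 (0.060). Itgam (0.03) and Cd14 (0.02) of the myeloid list were not called there either. Within the CD25-CD49f- group the array with the lowest myeloid and dendritic sum, replicate 1, also had the lowest Prf1 level (7.24). The array with the highest sum, replicate 7, had a Prf1 level of 7.55. Both are among the 4 arrays that stood apart. Without these 2 the sums of the group ran from 4563 in replicate 3 to 8622 in replicate 6, where Prf1 read 8.34 and 7.53. The NK sums then ran from 1345 to 2081. The part of NK, myeloid and dendritic cells in the Prf1 result was not tested. B cell markers summed to 443.6 to 1111, 600.8 to 1010, 455.2 to 857.9 and 465.7 to 905.6 in CD25-CD49f-, CD25-CD49f+, CD25+CD49f- and CD25+CD49f+ cells, ranges that overlapped. Neutrophil markers summed to 902.2 to 2085, 1327 to 2781, 911.3 to 1740 and 724.3 to 1567, and mast cell and basophil markers to 103.8 to 125.2, 121.2 to 162.4, 95.53 to 129.1 and 99.37 to 124.4, in the same order.

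**Figure D5:**
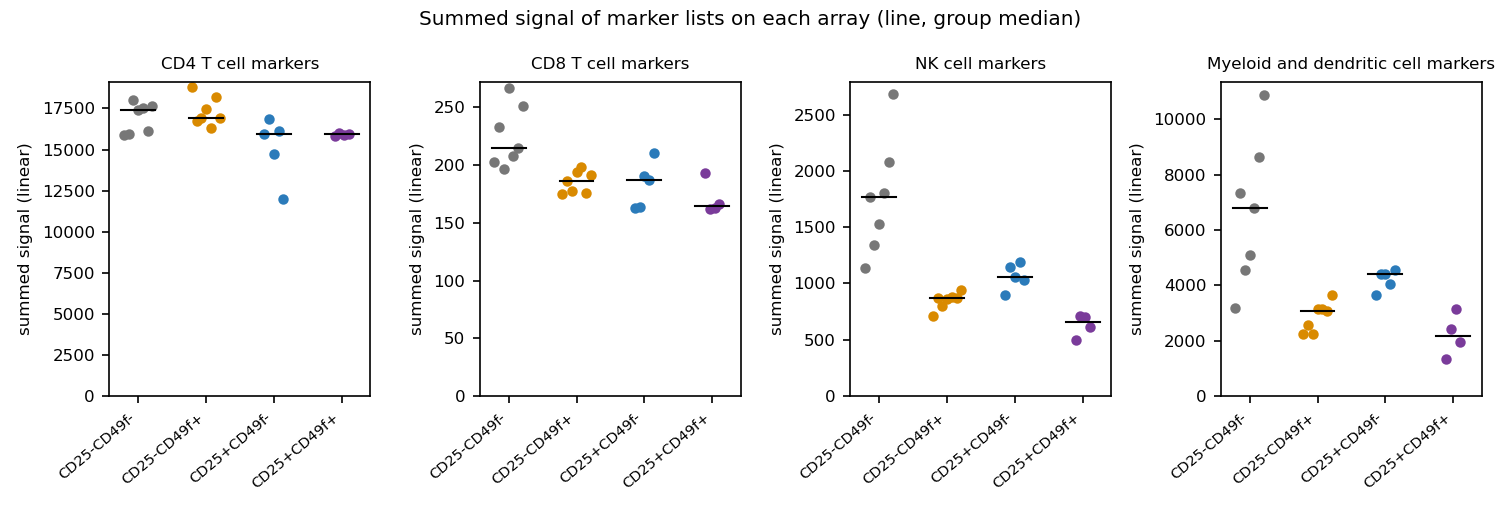
Summed linear signal of 4 marker lists (panels) on every array (points) by gate, with the group median as a line. The NK and the myeloid and dendritic cell sums have their highest medians in CD25-CD49f- cells, 1767 and 6787. There 7 of the 10 NK markers were at or under the level of the absent Xist signal. The CD4 T cell sums of CD25+CD49f+ cells, 15845 to 15981, lie below those of CD25-CD49f+ cells, 16289 to 18799.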

How the data were processed

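The authors deposited 1 table of log2 expression values for 45101 probe sets on 23 arrays, which they made with RMA per the submitters' processing notes; its version, and the scanning and filtering steps, are not given in the sources used here. Per the labels' protocols, biotin-labelled cRNA was prepared from total RNA. RMA corrects background, scales arrays to a shared distribution and joins the probes of a probe set, so levels are relative, and differences of dim probe sets are compressed. The number of arrays limits the precision: between CD49f gates a log2 difference had a median standard error of 0.124 in CD25+ and 0.0990 in CD25- cells.

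No further scaling was applied. The array annotation gave 34958 probe sets of a single gene, 932 of several and 9211 of none, and 34754 of the 34958 matched a mouse RefSeq gene (GRCm38.p6) by Entrez identifier. Of a gene's probe sets, the one with the highest mean was used, which left 18194 genes. The 4 groups were fitted together with limma 3.58.1 (lmFit, contrasts, eBayes) in R 4.3.3, with Benjamini-Hochberg adjustment over all genes of each comparison. The fit was also run on simulated data with independent noise and no arrays that stand apart. That run is not used as support for the calls. Python 3.11.15 with matplotlib 3.10.9 made the figures.

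The members, lists, motifs and comparisons were chosen with earlier results of these data known. Named are the members, Il2ra, Itga6 and Foxp3 as a check of the gates, up to 4 called genes of each list with the smallest p in a comparison, or 2 uncalled ones as values, the defining markers of CD4 T, CD8 T and NK cells, and the 3 genes most like each member by Pearson's r over all arrays. Listed genes that were not measured by a probe set of their own were not analysed here. The alternatives tried were a replicate block, leaving out each array, array weights, robust trended eBayes, quantile and median scaling, other ways of joining probe sets, brighter genes only, the compared groups alone, and covariates for Y-linked transcripts or for the Actb difference between 3' and 5' probe sets. Fits without the 4 arrays that stood apart and within arrays with Xist or with Y-linked transcripts alone were added after seeing the data. An array counted as carrying Y-linked transcripts or Xist above log2 levels of 6 and 8.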

Additional observations from a re-analysis of the deposited data

Results flagged for a closer look

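Across the CD49f gates, 5 of the 8 members differed between CD25+ and CD25- cells by the interaction in limma, where 5.31% of all genes were called. The CD49f difference in CD25+ cells minus that in CD25- cells was -2.47 for Gzmb (adjusted p = 1.02e-10), -1.16 for Nkg7 (adjusted p = 3.03e-06), -0.98 for Gzmk (adjusted p = 9.40e-04), -0.61 for Fasl (adjusted p = 0.00209) and 1.41 for Prf1 (adjusted p = 9.10e-05). For Gzmb the 2 differences had opposite signs and were both called. For Prf1 the CD49f difference was -1.48 in CD25- and -0.08 in CD25+ cells. The dimmer probe sets of Prf1 and Fasl gave interactions of 0.20 (limma adjusted p = 0.809) and -0.28 (adjusted p = 0.805). Some levels were at or under that of the absent Xist signal: Gzmb on all CD25-CD49f- arrays and Gzmk on all CD25+ arrays. So were Prf1 on 6 of 7 CD25-CD49f+ and all CD25+ arrays, and Fasl on 4 of 5 CD25+CD49f- and 4 of 4 CD25+CD49f+ arrays.

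In 4 of 40 groups of arrays tested over the member probe sets an array lay far from the others. Chance alone gives this for about 1 group in 20, or about 2 of 40. For Ctsw CD25-CD49f- replicate 7 read 10.11, where the next array read 9.28, and CD25-CD49f+ replicate 1 read 9.77, where the next read 9.15. Both are among the 4 arrays with low correlation to their group. For Nkg7 CD25+CD49f- replicate 2 read 9.16, where the next array read 8.85. For Gzmk CD25+CD49f- replicate 4 read 6.15, where the next array read 6.37.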

How the results depend on the processing

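Of 2134 values of the 56 member differences under alternatives, 2038 kept their direction and their side of the threshold, 59 lost the call, 22 gained it and 15 changed sign. The 2038 include values that could hardly move, so they do not measure robustness. Leaving out an array of a group outside a pairwise comparison leaves its difference unchanged. Differences that were called in neither fit also count among the 2038. With 1 exception those that changed sign were not called in the fit of all arrays. The exception was Prf1 in CD25+CD49f+ against CD25-CD49f- cells, which was 0.0082 with the dimmer Prf1 probe set, where Prf1 also read 0.13 between the CD49f gates of CD25+ cells and 0.080 across the CD25 gate of CD49f+ cells. The mean of both Prf1 probe sets gave 0.028 between the CD49f gates of CD25+ cells, and the Actb covariate gave 0.063 for Prf1 in CD25+CD49f- against CD25-CD49f+ cells. Gzma between the CD49f gates of CD25+ cells ranged from -0.29 to 0.061 on leaving out an array, with 0.061 without CD25+CD49f+ replicate 1, and read 0.063 in arrays with Y-linked transcripts alone. Between those of CD25- cells it ranged from -0.076, without CD25-CD49f- replicate 7, to 0.21, and read -0.041 without the 4 arrays that stood apart and -0.12 in arrays with Xist alone. In arrays with Y-linked transcripts alone Prf1 read 0.0057 for CD25+CD49f+ and 0.016 for CD25+CD49f- against CD25-CD49f+ cells, and Ctsw read 0.015 for CD25+CD49f+ against CD25-CD49f+ cells. Ctsw read 0.020 between the CD49f gates of CD25- cells in arrays with Xist alone, and for CD25+CD49f- against CD25-CD49f- cells it ranged from -0.0068, without CD25-CD49f- replicate 2, to 0.21. The cause of these changes was not tested.

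The number of members called moved by over 1.5 times in the smaller fits within arrays of 1 kind. In arrays with Xist alone, and likewise in those with Y-linked transcripts alone, it was 0 against 3 between the CD49f gates of CD25+ cells, 3 against 5 for CD25+CD49f- against CD25-CD49f+ cells and 3 against 5 for the interaction. Leaving out each array gave 2 to 3 members called between the CD49f gates of CD25+ cells, 4 to 5 between those of CD25- cells, 6 in each case for CD25+CD49f- and 6 to 7 for CD25+CD49f+ against CD25-CD49f- cells, 4 in each case for CD25+CD49f+ and 4 to 5 for CD25+CD49f- against CD25-CD49f+ cells, and 5 in each case for the interaction.

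Counts over all genes moved more. Between the CD49f gates of CD25+ cells 332 genes were called, against 762 with array weights, 588 without the 4 arrays, 203 among brighter genes, and 119 and 92 in arrays with Xist or Y-linked transcripts alone. Between those of CD25- cells 2443 were called, against 3742 with array weights and 1340 and 1080 within the kinds of array. For CD25+CD49f+ against CD25-CD49f+ cells 1040 were called, against 3083 with array weights, 2361 without the 4 arrays, and 493 and 264. For CD25+CD49f- against CD25-CD49f- cells 2551 were called, against 1284 and 1004. For CD25+CD49f+ against CD25-CD49f- cells 2396 were called, against 4071, 3957, 1347 and 1200, for CD25+CD49f- against CD25-CD49f+ cells 1612, against 2963, 2604, 695 and 425, and for the interaction 966, against 2273, 1710, 370 and 242, in the order array weights, without the 4 arrays, Xist and Y-linked.

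Whether same-numbered arrays were paired is not settled by these values. Deviations from the group means correlated above 0.1 in 6 of 7 pairs between the CD49f gates of CD25- cells and 3 of 4 between those of CD25+ cells. The most correlated array of the other gate carried the same number in only 0 of 7 and 1 of 4 of these cases. It did so in 0 of 5 and 2 of 4 cases for CD25+CD49f- and CD25+CD49f+ against CD25-CD49f- cells. Against CD25-CD49f+ cells it was 1 of 5 and 1 of 4. For CD25+CD49f- against CD25-CD49f- cells the 5 pairs ran from -0.51 to 0.01. All 4 pairs between the CD49f gates of CD25+ cells shared their Xist and Y-linked kind, and 5 of 7 between those of CD25- cells. The kind was shared in 1 of 5 pairs of CD25+CD49f- and 1 of 4 of CD25+CD49f+ with CD25-CD49f- cells. With CD25-CD49f+ cells it was 2 of 5 and 2 of 4. With the replicate block 3 members were called between the CD49f gates of CD25+ cells, 4 between those of CD25- cells and 5 in the interaction, the same counts as without it, and the random block (correlation -0.01) ended the call of Ccl5 between the CD49f gates of CD25+ cells (adjusted p = 0.0531). How far a signal lies above background could not be read without detection calls.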

Other observations

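Of the 29 measured granule and killing genes, Fas, Bid, Serpinb9 and Tnfsf10 were picked after their values were seen, and limma called each higher in the other 3 gates than in CD25-CD49f- cells. Fadd and Casp8, which act below Fas, were called in no comparison. Fas, the receptor of Fas ligand, was higher by 0.37 ± 0.12 (SE, adjusted p = 0.0428) in CD25-CD49f+, 0.67 ± 0.13 (adjusted p = 5.95e-04) in CD25+CD49f- and 0.64 ± 0.14 (adjusted p = 0.00190) in CD25+CD49f+ cells on the log2 scale. Bid, which granzyme B cuts, was higher by 0.60 ± 0.15, 0.76 ± 0.16 and 1.07 ± 0.17 in the same order, and Serpinb9, which encodes an inhibitor of granzyme B, by 0.36 ± 0.10, 0.47 ± 0.11 and 0.44 ± 0.12. For these 3 genes no comparison of a CD25+ group with CD25-CD49f+ cells was called. Tnfsf10, which encodes the death ligand TRAIL, was higher in both CD25+ groups than in CD25-CD49f+ cells as well, by 0.66 ± 0.14 with CD49f (adjusted p = 0.00370) and 0.47 ± 0.13 without it (adjusted p = 0.0234), where Fasl was lower.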
